A study of Homo sapiens with 8 samples.

Results

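Aminoacyl-tRNA synthetases are the enzymes that join each amino acid to its transfer RNA. The genes described here were chosen by name: 20 genes for cytosolic enzyme subunits, 16 for mitochondrial enzymes (symbols ending in 2) and 3 for the scaffold proteins that hold several cytosolic enzymes together. Of these 39 names, 38 had a row in the deposited table of 26830 gene symbols, and all 38 passed the filter on low values. VARS2, the mitochondrial valyl enzyme, is not analysed here. The data are polyadenylated RNA levels in 8 libraries of NOMO-1 and MOLM-13, established human acute myeloid leukaemia lines that carry an MLL fusion gene. In each line, a group carried hairpin #1 against ALKBH5 (shALKBH5), an enzyme that removes the m6A methyl mark from RNA, and a group carried a control hairpin (shNS). All cells were transduced with lentivirus and selected with puromycin (1 ug/ml for 1 week by the sample protocols, 4 days by the series text), and the sample protocols name FTO as the target of the virus although every sample label names ALKBH5 or the control. Each group had 2 libraries (n = 2 throughout), only 1 hairpin was used, and no label ties the libraries to separate cultures, so p-values measure the spread between libraries, which may be technical.

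Cells keep separate sets of synthetases for the cytosol and for the mitochondrion, the latter made from nuclear genes and imported. In the cytosol, the enzymes for glutamate and proline (EPRS), isoleucine (IARS), leucine (LARS), methionine (MARS), glutamine (QARS), arginine (RARS), lysine (KARS) and aspartate (DARS) sit with the scaffold proteins AIMP1, AIMP2 and EEF1E1 in the multisynthetase complex. The other cytosolic enzymes work outside it. Uncharged transfer RNA activates the kinase GCN2 (EIF2AK4), which raises translation of the transcription factor ATF4, and several cytosolic synthetase genes are known ATF4 targets. WARS, the cytosolic tryptophanyl enzyme, is also known as an interferon-induced gene.

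The deposited values are TPM, a share of transcripts scaled by transcript length, so levels can be compared between genes and a rise of abundant transcripts lowers all others. The depth of the libraries is unknown. ALKBH5 stood at 70.4 and 71.8 TPM in NOMO-1 controls against 15.1 and 14.2 TPM after knockdown, and at 45.7 and 45.8 against 9.45 and 7.35 TPM in MOLM-13. The myeloid markers summed to between 1280 and 20400 TPM in the 8 libraries, with the granule enzyme gene MPO under 0.5 TPM in all NOMO-1 libraries. Lymphoid and epithelial or fibroblast markers summed to at most 3.15 and 0.8 TPM. Erythroid and megakaryocyte markers stayed at or under 0.2 TPM except for 14.1 TPM in MOLM-13 shALKBH5 replicate 3, nearly all of it HBB. Over the 38 genes, the SD of the log2(TPM + 1) difference within a group (1 library minus the other) was highest in MOLM-13 shALKBH5 (0.268) and lowest in the NOMO-1 controls (0.0953). It was 0.231 in the NOMO-1 knockdown and 0.116 in the MOLM-13 controls. Over the 8804 genes of at least 10 TPM this SD was 0.53 in MOLM-13 shALKBH5 and 0.184 in the NOMO-1 knockdown. The controls had 0.153 in NOMO-1 and 0.133 in MOLM-13. Replicate 3 of MOLM-13 shALKBH5 was lower than replicate 1 by a median of 0.28 over these genes, and by 0.37 over the 8804 genes of at least 10 TPM. Fewer cells with a transcript and less of it per cell cannot be told apart in bulk libraries.

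In the controls, cytosolic transcripts were several times more abundant than mitochondrial ones. The 20 cytosolic genes summed to 3225 and 3281 TPM in NOMO-1 and 3157 and 3129 TPM in MOLM-13, with medians of 160, 163, 153 and 153 TPM. The 15 mitochondrial genes summed to 566, 566, 483 and 490 TPM, with medians of 26, 26.6, 24.7 and 24.6 TPM. IARS2, for mitochondrial isoleucine, was the highest of its set in every library and stood in the range of the cytosolic enzymes, at 168 and 169.8 TPM in NOMO-1 controls. CARS2, for mitochondrial cysteine, was above its cytosolic partner CARS in all 8 libraries. FARS2 for phenylalanine and PARS2 for proline were the lowest, with FARS2 at 4.72 and 4.42 TPM in NOMO-1 controls and PARS2 at 3.57 and 4.75 TPM in MOLM-13 controls. GARS, the glycyl enzyme, led the cytosolic order in NOMO-1 (361 ± 5.58 TPM, SD), followed by EPRS (275 ± 8.63), while the next places, KARS (233 ± 4.76) and DARS (232 ± 2.53), lay within their spread of each other. In MOLM-13 the order began with the threonyl enzyme TARS (337 ± 17.6 TPM), EPRS (273 ± 4.36) and QARS (262 ± 4.67). The genes GARS and KARS also code for the mitochondrial forms of their enzymes.

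**Figure D1:**
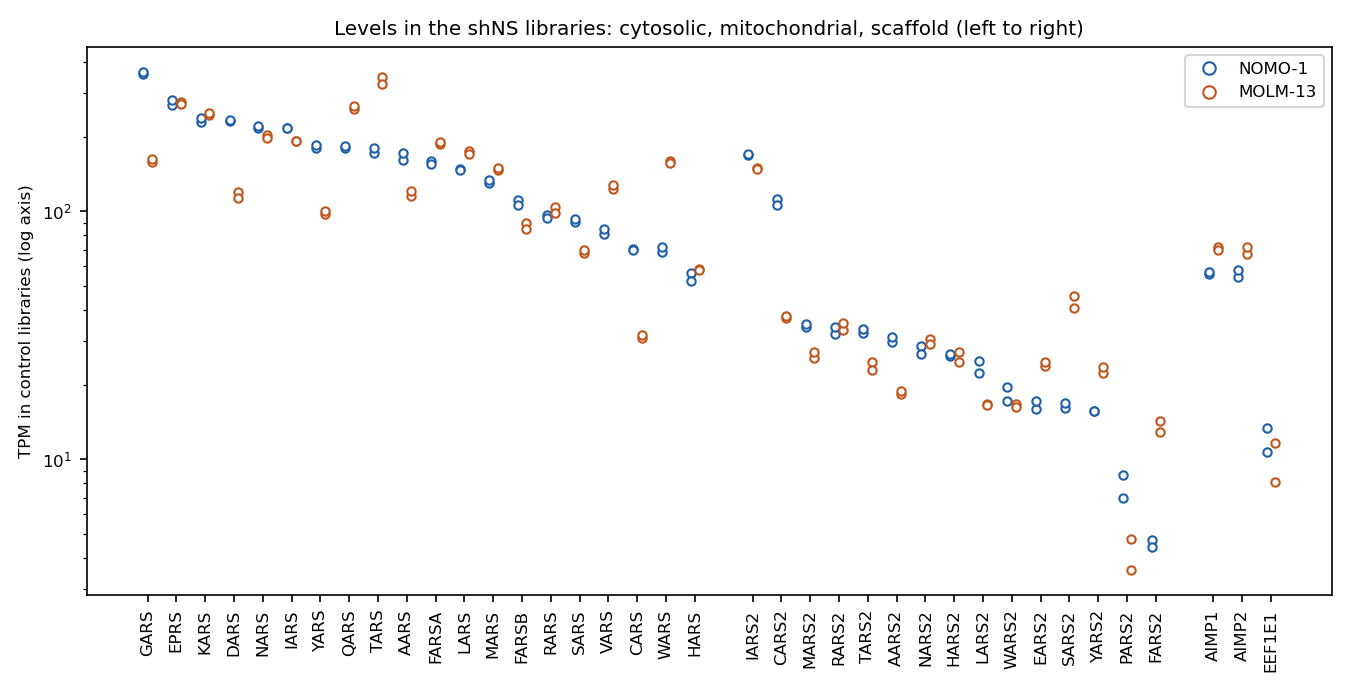
TPM (log axis) of each gene in the 4 control libraries, NOMO-1 in blue and MOLM-13 in orange, with each gene set ordered by its NOMO-1 mean. Cytosolic genes lie mostly above mitochondrial ones, with IARS2 at 149 to 169.8 TPM as an exception, and libraries of a line lie close together.

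The control lines differed in single enzymes, in both directions. By limma with Benjamini-Hochberg adjustment over all 14302 genes tested, 12 of the 38 genes were higher in NOMO-1 and 9 lower, 59.8% being the share of all genes that passed this comparison, 40.6% higher and 19.2% lower. The median difference was 0.02 on the log2(TPM + 1) scale, against 0.29 over all genes. After median-of-ratios scaling, which sets a typical gene to no change, the split was 6 higher and 20 lower. The share of all genes that passed with this scaling is not given, here or below. The medians were then -0.34 for cytosolic, -0.14 for mitochondrial and -0.61 for scaffold genes. Among the genes higher in NOMO-1, CARS2 had the highest fold, 2.91 times (112 and 106 TPM against 37.2 and 37.9). The cytosolic enzymes CARS and GARS were 2.24 and 2.25 times higher in NOMO-1, and DARS was 2 times higher. FARS2 was 2.96 times lower in NOMO-1, SARS2 for mitochondrial serine 2.62 times lower, WARS 2.25 times lower and TARS 1.91 times lower. Of the 21 calls, 11 stood in every alternative fit, among them CARS, CARS2, DARS, GARS, FARS2, SARS2 and TARS. Without NOMO-1 shNS replicate 1, 12 genes passed.

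In NOMO-1 the cytosolic enzymes that changed after ALKBH5 knockdown went in opposite directions. Of the 20 cytosolic genes 4 rose and 5 fell, of the 15 mitochondrial genes 3 rose and 3 fell, and of the 3 scaffold genes 1 fell. That is 16 of 38, against 43.6% of all genes tested (28.6% higher, 15% lower). The median log2 fold change was 0 for cytosolic genes, -0.16 for mitochondrial genes and -0.06 for the scaffold, against 0.16 over all genes. Median-of-ratios scaling lowered the median of all genes to 0 and gave 5 higher and 20 lower among the 38. The medians were then -0.22 for cytosolic, -0.38 for mitochondrial and -0.28 for scaffold genes.

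In MOLM-13 nearly every change of these genes after ALKBH5 knockdown was a fall. Of the cytosolic genes 12 fell and 0 rose (8 did not pass), of the mitochondrial genes 7 fell and 1 rose, and 0 of the 3 scaffold genes were called by limma (also 0 before adjustment). That is 20 of 38, against 41.8% of all genes tested (10.6% higher, 31.2% lower). The medians were -0.58, -0.46 and -0.16, against -0.18 over all genes. With median-of-ratios scaling the median of all genes was 0.03, and 6 of the 38 genes were higher and 15 lower. The cytosolic, mitochondrial and scaffold medians were then -0.29, -0.19 and 0.13. Set alone against the controls without scaling, knockdown replicate 1 had medians of -0.37, -0.23 and 0.04, against -0.06 over all genes. Replicate 3 had -0.78, -0.51 and -0.36, against -0.33 over all genes. The summed cytosolic level was 2548 TPM in replicate 1 and 2029 TPM in replicate 3 of the knockdown, both under the controls, while in NOMO-1 it was 3233 and 3493 TPM after knockdown, overlapping its controls.

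**Figure D2:**
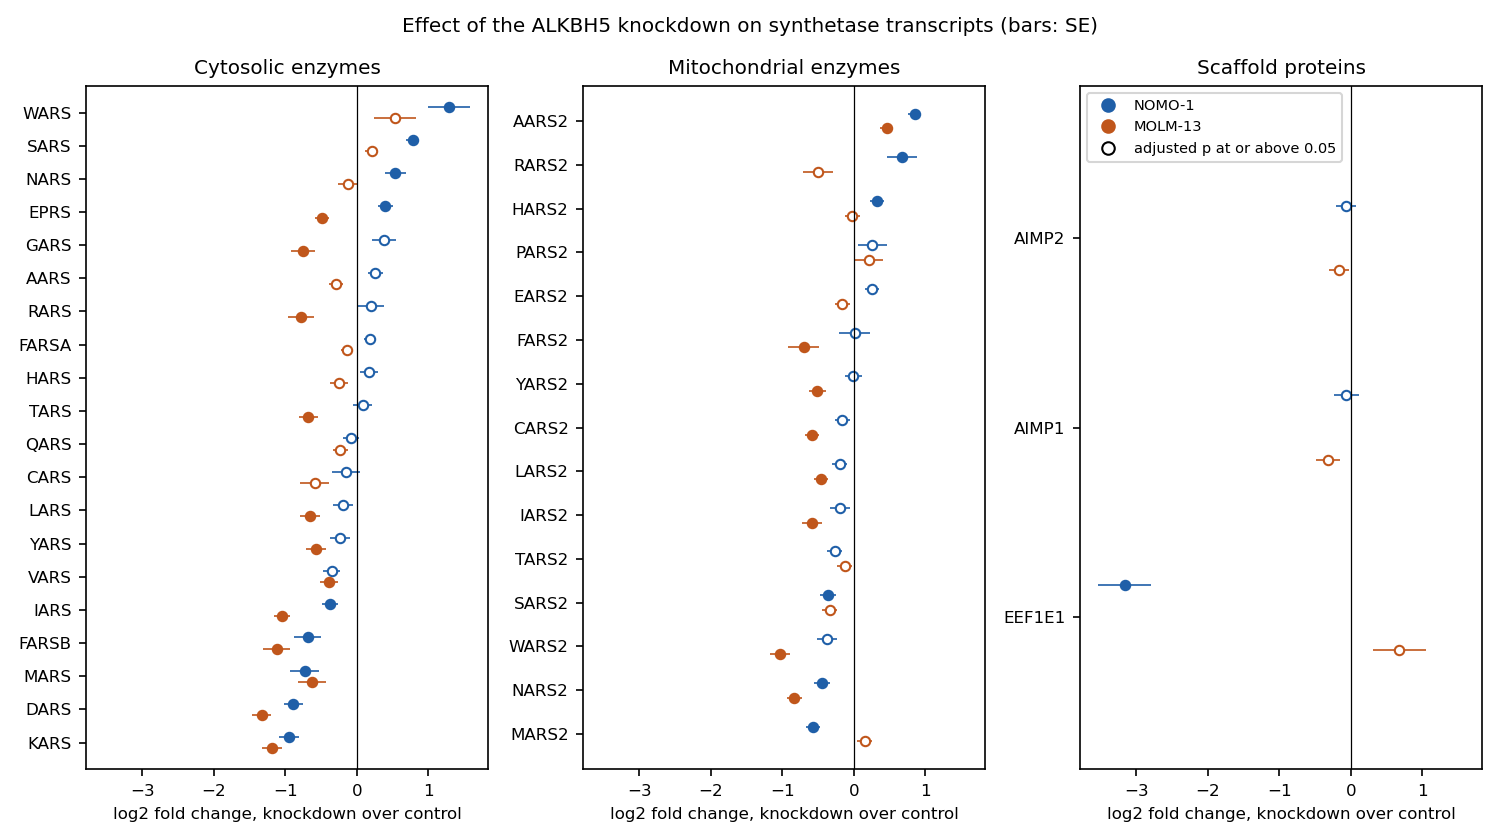
Log2 fold change of knockdown over control on the log2(TPM + 1) scale for the 38 genes in NOMO-1 (blue) and MOLM-13 (orange), with SE bars, filled where limma's adjusted p was under 0.05. The cytosolic panel spreads from -0.95 (KARS) to 1.29 (WARS) in NOMO-1, and most MOLM-13 points lie left of zero.

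The number of calls in NOMO-1 changed with the libraries of either line that were in the fit. The median effect of the cytosolic genes in NOMO-1 stayed between -0.06 and 0.06 when a NOMO-1 library was left out. Leaving out a NOMO-1 shNS library left 6 (replicate 1) or 5 (replicate 3) of the 38 genes past the threshold, leaving out a NOMO-1 shALKBH5 library left 5 (replicate 2) or 6 (replicate 3), and leaving out either MOLM-13 shNS library left 8. Leaving out either MOLM-13 shALKBH5 library gave 29; the fit pools the spread of all 4 groups. In MOLM-13 the count fell to 6 and 7 without control replicates 1 and 3, and to 6 with the line fitted alone. In all, 5 calls in NOMO-1 (DARS, KARS, SARS, AARS2 and EEF1E1) and 6 in MOLM-13 (DARS, FARSB, IARS, KARS, NARS2 and WARS2) stood in all 17 alternative fits, and every other call ended in at least 1.

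Within the multisynthetase complex, 4 of 8 enzymes fell and 1 rose in NOMO-1, and 7 of 8 fell in MOLM-13, with medians of -0.29 and -0.71 (of all genes, 15% were lower in NOMO-1 and 31.2% in MOLM-13). For the 12 cytosolic genes outside it the counts were 3 higher and 1 lower in NOMO-1 and 5 lower in MOLM-13, with medians of 0.18 and -0.34. The 3 rises in NOMO-1 are near the 28.6% of all genes that were higher there. The MOLM-13 count is near the share over all genes as well. KARS (chromosome 16, 75627474 to 75648643, GRCh38, minus strand) went from 229.9 and 237 TPM in NOMO-1 controls to 114 and 127 TPM with the hairpin. In MOLM-13 it went from 245 and 249 TPM to 123 and 94.2 TPM. The knockdown libraries lay at about the same level in both lines, well under every control. The fall was 0.95 in NOMO-1 (log2 fold change -0.95, SE 0.14, limma adjusted p = 0.0029) and 1.19 in MOLM-13 (log2 fold change -1.19, SE 0.14, adjusted p = 0.0015). The KARS gene overlaps TERF2IP on the other strand, and whether the counting used strand is not given in the sources used here. TERF2IP, a telomere protein gene, had log2 fold changes of 0.78 in NOMO-1 and -0.66 in MOLM-13.

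DARS (chromosome 2, 135906677 to 135986100, minus strand) went from 230.4 and 234 TPM to 115 and 136 TPM in NOMO-1, 1.85 times lower. In MOLM-13 it went from 119 and 113 TPM to 50.4 and 41.2 TPM, 2.54 times lower. The knockdown libraries of NOMO-1 thus reached the level of the MOLM-13 controls. The log2 fold changes were -0.89 (SE 0.13, limma adjusted p = 0.003) and -1.33 (SE 0.13, adjusted p = 0.0009). IARS fell in both lines as well, more in MOLM-13, where it went from 192 TPM in each control to 99.4 and 85 TPM (log2 fold change -1.05) than in NOMO-1, where 217 and 216 TPM became 158 and 176 TPM (-0.38). The difference of the 2 effects of IARS was 0.68 (SE 0.15, limma adjusted p = 0.02). It was 0.17 with median-of-ratios scaling (adjusted p = 0.24). MARS, the methionyl enzyme, had -0.73 in NOMO-1 and -0.63 in MOLM-13, and its adjusted p of 0.025 and 0.041 rose above the threshold without any NOMO-1 library or any MOLM-13 control library.

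EPRS, a single protein with 2 enzyme activities, was the gene called in opposite directions. It rose from 269 and 281 TPM to 349 and 376 TPM in NOMO-1 and fell from 276 and 270.2 TPM to 208 and 182 TPM in MOLM-13. The control levels of the lines overlapped and the knockdown levels lay apart on either side. Its log2 fold changes were 0.4 (SE 0.1, limma adjusted p = 0.019) and -0.49 (SE 0.1, adjusted p = 0.01), and their difference was 0.89 (SE 0.14, adjusted p = 0.0074). With median-of-ratios scaling the separate calls ended and the difference of 0.37 still passed (adjusted p = 0.044). Of all genes tested, 4.13% were called in opposite directions. RARS and LARS fell in MOLM-13 (-0.78 and -0.65) and were not called in NOMO-1 (0.2 and -0.2). The difference of effects passed for RARS (0.98, adjusted p = 0.028) and not for LARS (0.45, adjusted p = 0.12). QARS, at 179.6 and 184 TPM in NOMO-1 controls and 259 and 265 TPM in MOLM-13 controls, was not called in either line (-0.08 and -0.23).

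Neither AIMP1 nor AIMP2, scaffold proteins of the complex, was called in either line without scaling. With median-of-ratios scaling both were called lower in NOMO-1, AIMP1 also with quantile normalization. In MOLM-13 AIMP2 was called higher with quantile normalization (0.19). AIMP1 stayed between 52.6 and 56.6 TPM in all NOMO-1 libraries and AIMP2 between 52 and 57.8 TPM, with log2 fold changes of -0.06 each. In MOLM-13 AIMP1 stood at 71.7 and 69.6 TPM in controls and at 67.8 and 46.8 TPM after knockdown, and AIMP2 at 67.2 and 71.9 TPM and at 71.3 and 53.9 TPM. Replicate 3 of the knockdown was the low library for both genes (log2 fold changes -0.32 and -0.16). The ratio of AIMP1 to AIMP2 stayed between 0.868 and 1.07 in the 8 libraries.

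EEF1E1, the scaffold protein also called AIMP3, was called in NOMO-1 alone without scaling. Its level was 13.4 and 10.7 TPM in the controls of that line, 1.1 TPM in knockdown replicate 2, and it was listed at 0 in replicate 3 (log2 fold change -3.16, SE 0.37, limma adjusted p = 0.0013). In MOLM-13 it stood at 11.6 and 8.1 TPM in controls and at 18.8 and 13.8 TPM after knockdown, higher in both libraries without passing the test (0.68, SE 0.37, adjusted p = 0.19). With median-of-ratios scaling and with quantile normalization it was called higher there. The gene (chromosome 6, 8073360 to 8102578, minus strand) lies within EEF1E1-BLOC1S5, a read-through locus that shares its exons, and reads may be assigned to either entry. The read-through entry moved in the other line: it was at 25.3 and 25.1 TPM in NOMO-1 controls and 22.7 and 25.3 TPM after knockdown, and at 26.8 and 25.4 TPM in MOLM-13 controls and 14.6 and 10.1 TPM after knockdown (log2 fold change -1.04, adjusted p = 0.0048). The sum of both entries was 38.7 and 35.8 TPM in NOMO-1 controls and 23.8 and 25.3 TPM after knockdown. In MOLM-13 the sum was 38.4 and 33.6 TPM in controls and 33.4 and 23.9 TPM after knockdown. In NOMO-1 both knockdown sums were below both control sums, and in MOLM-13 replicate 1 was at nearly the level of the lower control. The value of EEF1E1 alone is uncertain in both lines.

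**Figure D3:**
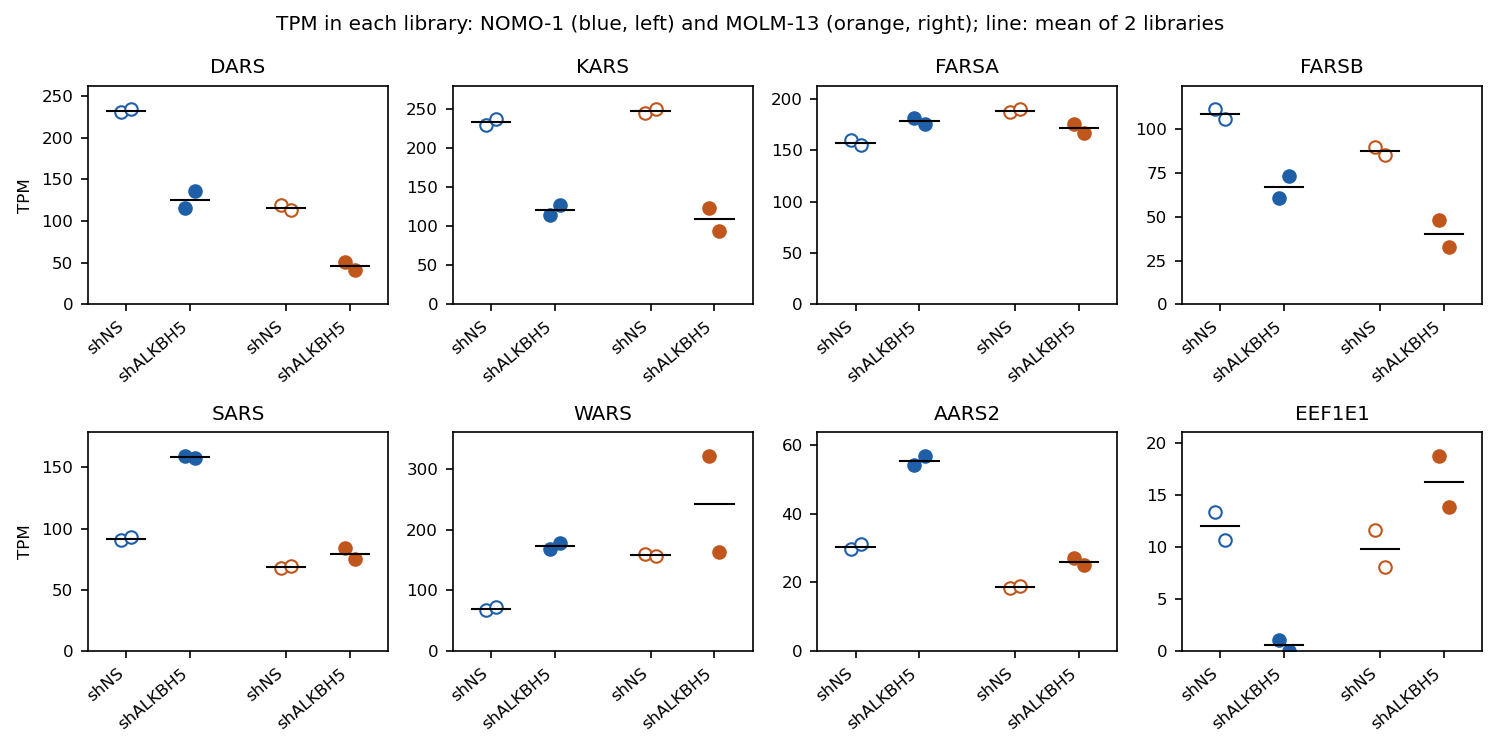
TPM of 8 genes in each library, with open points for controls, filled points for knockdown and a line at the mean of 2 libraries. DARS, KARS and FARSB were lower after knockdown in both lines, FARSA stayed between 155 and 189.8 TPM, and the MOLM-13 knockdown libraries lay far apart for WARS.

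Phenylalanyl-tRNA synthetase of the cytosol is built from 2 kinds of subunit, and their transcripts parted. FARSA, the alpha subunit, stood at 160.1 and 155 TPM in NOMO-1 controls and at 182 and 175 TPM after knockdown, and at 188 and 189.8 TPM in MOLM-13 controls and 176 and 167 TPM after knockdown. FARSA was not called in either line (0.18, adjusted p = 0.12, and -0.14, adjusted p = 0.22). FARSB, the beta subunit (chromosome 2, 222570536 to 222656337, minus strand), went from 111 and 106 TPM to 61.1 and 73.55 TPM in NOMO-1 (-0.69, SE 0.19, limma adjusted p = 0.029). In MOLM-13 it went from 89.75 and 85.1 TPM to 48.3 and 32.6 TPM (-1.12, SE 0.19, adjusted p = 0.0057). All knockdown libraries were below all controls of their line for FARSB. The ratio of FARSA to FARSB, which no scaling of the library can alter, rose from 1.44 and 1.46 to 2.97 and 2.38 in NOMO-1. In MOLM-13 it rose from 2.09 and 2.23 to 3.64 and 5.12. The NOMO-1 call of FARSB ended without any NOMO-1 library and without either MOLM-13 control (adjusted p up to 0.16).

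Among the cytosolic enzymes outside the complex, SARS, WARS and NARS rose in NOMO-1. SARS, the seryl enzyme, went from 90.4 and 92.7 TPM to 159 and 158 TPM, 1.73 times higher (0.78, SE 0.09, limma adjusted p = 0.0013). In MOLM-13 SARS was at 67.5 and 69.6 TPM in controls and 84 and 74.7 TPM after knockdown, higher in both libraries but not past the threshold (0.21, adjusted p = 0.12). With median-of-ratios scaling SARS passed there too (0.5, adjusted p = 0.0032). NARS, the asparaginyl enzyme, went from 218 and 220.3 TPM to 313 and 323 TPM in NOMO-1 (0.54, adjusted p = 0.023). In MOLM-13 NARS was at 202 and 197 TPM in controls and at 211 and 158 TPM after knockdown (-0.13, adjusted p = 0.5; 0.16, adjusted p = 0.038, with median-of-ratios scaling). GARS was at 357 and 365 TPM in NOMO-1 controls and at 453 and 487 TPM after knockdown, without passing (0.38, adjusted p = 0.12). In MOLM-13 it fell from 159 and 162 TPM to 115 and 79 TPM (-0.75, adjusted p = 0.016), and its effects differed by 1.13 between the lines (SE 0.24, adjusted p = 0.017). TARS, YARS (tyrosyl) and VARS (valyl) fell in MOLM-13 by 0.68, 0.57 and 0.39, and AARS (alanyl), CARS and HARS (histidyl) did not pass in either line.

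WARS (chromosome 14, 100333788 to 100376805, minus strand) had the largest rise of the 38 genes in NOMO-1. Controls held 68.25 and 71.7 TPM of it and knockdown libraries 168 and 177 TPM, a ratio of 2.46 (1.29, SE 0.29, limma adjusted p = 0.013). The call ended without any NOMO-1 library (adjusted p up to 0.074). In MOLM-13 it stood at 159.7 and 156 TPM in controls, at 322 TPM in knockdown replicate 1 and at 163 TPM in replicate 3. In unscaled TPM only replicate 1 was high, and the comparison did not pass (0.53, SE 0.29, adjusted p = 0.19). With median-of-ratios scaling and with quantile normalization WARS was called higher in MOLM-13 too. A list of 12 interferon-gamma response genes moved with that library: its 11 measured members summed to 173 and 166 TPM in the MOLM-13 controls, 700 TPM in knockdown replicate 1 and 149 TPM in replicate 3. In NOMO-1, where WARS rose in both knockdown libraries, the list summed to 244 and 247 TPM in controls and 269 and 293 TPM after knockdown, with 0 of 7 tested members called by limma (before adjustment, 1 had p under 0.05), against 43.6% of all genes. In MOLM-13, 2 of 7 were higher, against 10.6% of all genes: GBP2, a GTPase gene (1.36, adjusted p = 0.006), and TAP1, a peptide transporter gene (1.26, adjusted p = 0.046). GBP2 was high in both MOLM-13 knockdown libraries, at 27.2 and 15.9 TPM against 8.04 and 7.02 TPM in controls. CXCL10, an interferon-induced chemokine gene of that list, stood at 130.5 TPM in MOLM-13 knockdown replicate 1 and at or under 0.45 TPM in the 7 other libraries. The part of an interferon response in the MOLM-13 value of WARS was not tested.

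The mitochondrial set held its own movements. AARS2, the alanyl enzyme, was the only gene called higher in both lines, from 29.8 and 31 TPM to 54.15 and 56.8 TPM in NOMO-1 and from 18.3 and 18.8 TPM to 27 and 24.9 TPM in MOLM-13. Its log2 fold changes were 0.85 (SE 0.09, limma adjusted p = 0.001) and 0.46 (SE 0.09, adjusted p = 0.0097), where 6.33% of all genes tested were higher in both. The cytosolic partner AARS was not called in either line (0.26 and -0.29). RARS2, the arginyl enzyme, rose in NOMO-1 from 32 and 34.1 TPM to 52.7 and 53.7 TPM (0.67, adjusted p = 0.041), and HARS2 rose by 0.32 (adjusted p = 0.04). The HARS2 call ended with median-of-ratios scaling and with quantile normalization, and its lowest value over the alternatives was 0.11. In MOLM-13 RARS2 stood at 33.1 and 35.4 TPM in controls and at 30.4 and 18.8 TPM after knockdown (-0.5, adjusted p = 0.1).

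NARS2, MARS2 and SARS2 (for asparagine, methionine and serine) fell in NOMO-1 by 0.44, 0.57 and 0.36. NARS2 fell in MOLM-13 too, from 30.5 and 29.1 TPM to 17.3 and 15.5 TPM (-0.83, SE 0.11, limma adjusted p = 0.0022). In all, 6 genes were lower in both lines (DARS, FARSB, IARS, KARS, MARS and NARS2), where 10.4% of all genes tested were. WARS2 went from 16.7 and 16.2 TPM to 8.45 and 6.74 TPM in MOLM-13 (-1.03, SE 0.14, adjusted p = 0.0023), and had -0.37 in NOMO-1 (adjusted p = 0.072). CARS2, IARS2, LARS2 and YARS2 fell in MOLM-13 by 0.58, 0.58, 0.46 and 0.51, and FARS2 fell by 0.7 with a call that ended in 12 alternatives. EARS2 (glutamyl), PARS2 and TARS2 were not called in either line.

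Of the 12 pairs of enzymes that charge the same amino acid in the cytosol and in the mitochondrion, some kept their ratio and others did not. The ratio of WARS to WARS2 was 3.99 and 3.66 in NOMO-1 controls and 12.6 and 12 after knockdown. In MOLM-13 it was 9.59 and 9.63 in controls and 38.1 and 24.1 after knockdown. The ratio of NARS to NARS2 also rose in both lines, from 7.64 and 8.27 to 16.5 and 15.3 and from 6.64 and 6.76 to 12.2 and 10.2. That of SARS to SARS2 went from 5.61 and 5.51 to 12.9 and 12.3 in NOMO-1 and from 1.66 and 1.53 to 2.3 and 2.38 in MOLM-13. The ratio of AARS to AARS2 went the other way, from 5.4 and 5.52 to 3.53 and 3.67 and from 6.28 and 6.4 to 3.76 and 3.65. For these 4 pairs the knockdown libraries of each line lay outside the range of its controls. That held too for MARS to MARS2, RARS to RARS2 and IARS to IARS2, whose ratios were lower after knockdown in both lines. TARS to TARS2 went from 5.35 and 5.4 to 7.17 and 6.61 in NOMO-1. In MOLM-13 that ratio went from 14.1 and 14.2 to 11.2 and 8.46. LARS to LARS2 was lower in MOLM-13. In NOMO-1 its knockdown libraries lay on either side of the controls (5.94 and 6.7 against 5.98 and 6.58). The ratio of HARS to HARS2, whose start sites lie 85 bases apart on opposite strands of chromosome 5 in RefSeq, stayed between 1.7 and 2.36 in all libraries. The ratio of CARS to CARS2 was 0.627 and 0.658 in NOMO-1 controls and 0.64 and 0.657 after knockdown. In MOLM-13 it was 0.826 and 0.839 in controls and 0.965 and 0.698 after knockdown, on either side. The ratio of YARS to YARS2 was 4.38 and 4.27 in MOLM-13 controls and 4.35 and 4.07 after knockdown. In NOMO-1 it was 11.5 and 11.8 in controls and lower after knockdown, at 9.11 and 11. These ratios carry no test. With 2 libraries a group, ranges often fail to overlap without any effect. How often other pairs of genes part in this way was not computed.

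**Figure D4:**
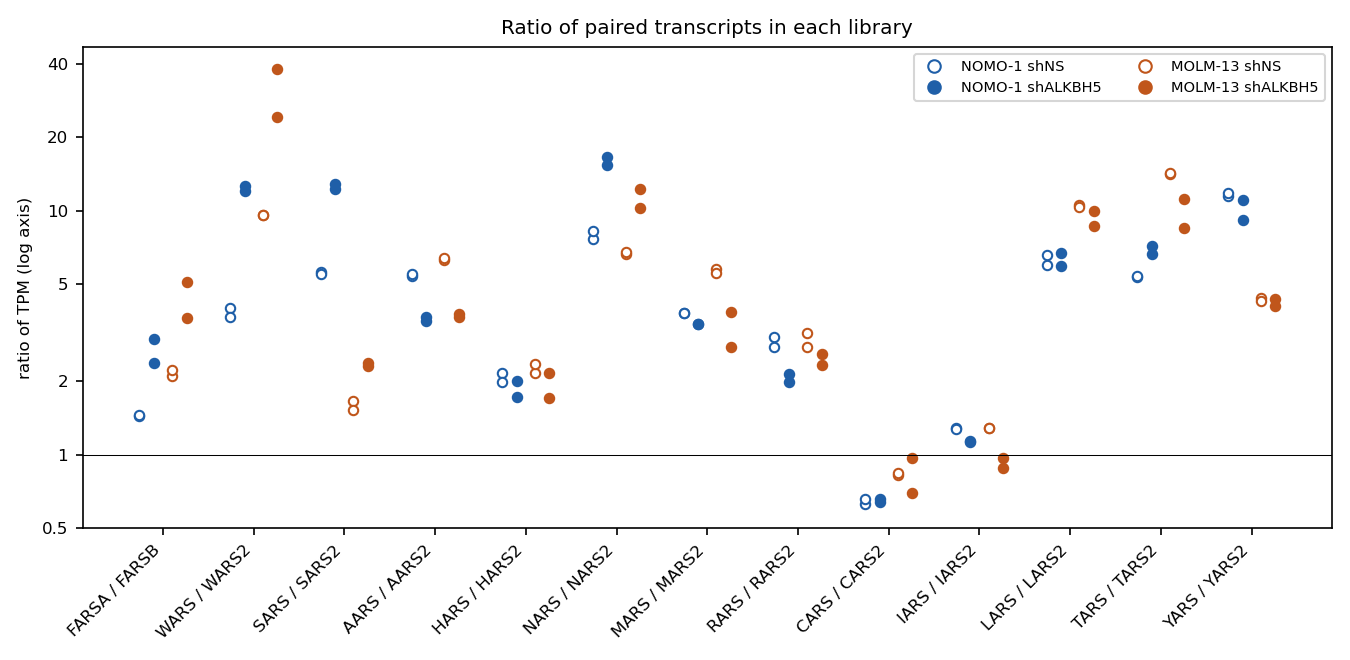
Ratio of TPM (log axis) for the subunit pair FARSA and FARSB and for 12 pairs of cytosolic and mitochondrial enzymes in each library, open for controls and filled for knockdown. WARS / WARS2, SARS / SARS2 and NARS / NARS2 rise after knockdown in both lines. AARS / AARS2, MARS / MARS2, RARS / RARS2 and IARS / IARS2 fall in both lines, while HARS / HARS2 stays between 1.7 and 2.36.

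The knockdown effects differed between the lines for 12 of the 38 genes, tested as an interaction in the same limma fit. In 10 of them the effect was higher in NOMO-1 than in MOLM-13 and in 2 (MARS2 and EEF1E1) lower, while of all genes 34.6% passed (29.7% higher, 4.9% lower). The counts of the 38 genes are near those shares. The median difference was 0.41 for the 38 genes and 0.42 for all genes. Cytosolic enzymes made up 8 of the 12 (AARS, EPRS, GARS, IARS, NARS, RARS, SARS and TARS). After median-of-ratios scaling 4 of the 38 were higher and 6 lower, with medians of -0.05 (cytosolic), -0.12 (mitochondrial) and -0.4 (scaffold). The count was 2 or 3 without any library other than the MOLM-13 shALKBH5 ones, 32 without replicate 1 of that group and 21 without replicate 3. MARS2 fell in NOMO-1, from 34.1 and 34.95 TPM to 21.8 and 24.3 TPM, and stood at 25.55 and 27 TPM in MOLM-13 controls and at 30.75 and 27.8 TPM after knockdown (difference -0.72, SE 0.15, adjusted p = 0.015).

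ATF4 and CHOP bind a composite element whose core is written TGATGNAA, and it was searched on both strands of the RefSeq promoters (GRCh38.p14, 250 bases before to 50 after each start site, 33 of 39 genes matched). It was present in the promoter of 8 of the 33 genes (24.2%), against 4.46% of all 27305 genes with a promoter. Of the 8, 7 code for cytosolic enzymes (AARS, CARS, GARS, IARS, MARS, NARS and TARS) and 1 for a mitochondrial enzyme (YARS2). The windows of 30 bases are printed because the same letters recur, with the match in capitals. They read 5′ to 3′ along the gene's strand:
AARS (chr16:70289675-70289704, minus strand): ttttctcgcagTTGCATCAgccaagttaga
CARS (chr11:3057407-3057436, minus strand): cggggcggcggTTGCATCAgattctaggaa
GARS (chr7:30594834-30594863, plus strand): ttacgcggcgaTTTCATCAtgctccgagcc
IARS (chr9:92293692-92293721, minus strand): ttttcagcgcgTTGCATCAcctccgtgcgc
MARS (chr12:57488053-57488082, plus strand): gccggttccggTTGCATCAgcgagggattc
NARS (chr18:57621804-57621833, minus strand): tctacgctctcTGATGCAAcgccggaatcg
TARS (chr5:33440956-33440985, plus strand): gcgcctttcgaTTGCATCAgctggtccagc
YARS2 (chr12:32756076-32756105, minus strand): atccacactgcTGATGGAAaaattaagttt

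Of these 8 windows, 6 carry the same letters, TTGCATCA or their reverse complement, and those of GARS and YARS2 differ from them. The transcripts of the 8 genes did not share a direction in NOMO-1: 1 was higher (NARS) and 2 lower (IARS and MARS), with a median log2 fold change of 0.04, against 5 higher and 6 lower of the other 25 matched genes (median -0.06). In MOLM-13, 5 of the 8 were lower (GARS, IARS, MARS, TARS and YARS2) with a median of -0.61, against 10 lower of the other 25 (median -0.32). For the difference between lines 5 of 8 were higher in NOMO-1 (AARS, GARS, IARS, NARS and TARS) and 0 lower, against 5 and 2 of 25, and 29.7% higher over all genes. With median-of-ratios scaling GARS was the only 1 of those 5 past the threshold (0.62, limma adjusted p = 0.0064), and MARS was lower (-0.6, adjusted p = 0.015). A match is a run of letters and does not show that a factor bound there.

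The amino acid response list holds 22 genes of this pathway. Of these, 5 were higher and 4 lower in NOMO-1, and 3 higher and 12 lower in MOLM-13, with medians of 0.19 and -0.5. Over all genes 28.6% were higher and 15% lower in NOMO-1, and 10.6% higher and 31.2% lower in MOLM-13, so the NOMO-1 count as a whole is near the 43.6% called over all genes. ATF4 itself stood at 290.5 and 289.6 TPM in NOMO-1 controls and 358 and 375 TPM after knockdown, and at 363 and 348 TPM in MOLM-13 controls and 316 and 207 TPM after knockdown, without passing in either line (0.34 and -0.47). The members with the smallest p in NOMO-1 were DDIT3, the gene of CHOP (2.18), ALDH18A1, an enzyme of proline synthesis (1.06), and SESN2, a stress-induced gene (1). In MOLM-13 they were CEBPB (1.27), SHMT2, a serine and glycine enzyme (-1.35), and VLDLR (-1.05). DDIT3 overlaps MARS on the opposite strand of chromosome 12. MARS fell in both lines while DDIT3 rose, and how reads of the stretch they share were assigned is not known here. EIF2AK4, the gene of GCN2, was at 47.1 and 48.7 TPM in NOMO-1 controls and 46 and 49 TPM after knockdown, and in MOLM-13 it went from 20.2 TPM in each control to 9.57 and 7.95 TPM (-1.12, adjusted p = 0.00089).

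The second RefSeq promoter of WARS holds letters of both interferon elements, printed because WARS was high in the MOLM-13 library with high interferon-gamma response genes. The interferon-stimulated response element was searched as GAAA, any 2 bases, GAAA, which is in the promoters of 2 of the 33 genes (WARS and EARS2, 6.06%) and of 4.38% of all genes. The gamma-activated site was searched as TTCNNNGAA, which is in those of 5 of the 33 (CARS, PARS2, TARS, WARS and WARS2, 15.2%) and of 9.38% of all genes. In MOLM-13 knockdown replicate 1, CARS (25.9 TPM), TARS (237 TPM) and WARS2 (8.45 TPM) were below both controls, and PARS2 (4.16 TPM) lay between them. The matches are in capitals:
WARS, first element (chr14:100375383-100375412, minus strand): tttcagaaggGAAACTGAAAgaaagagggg
WARS, second element (chr14:100375471-100375499, minus strand): gctcaagtgtTTCTGAGAAtctgggtgat
EARS2, with the first of these runs on its other strand, had 23.8 and 24.6 TPM in MOLM-13 controls and 20.7 and 22.3 TPM after knockdown, and was not high in replicate 1. The E-box CACGTG, the MYC family's element, was in the promoters of 5 of the 33 genes (AIMP2, CARS2, EARS2, IARS and MARS2, 15.2%) and of 8.77% of all genes, and IARS and MARS2 fell in NOMO-1 and IARS and CARS2 in MOLM-13 (15% and 31.2% of all genes were lower), with MARS2 at 0.15 and not called there.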

How the data were processed

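Polyadenylated RNA of 8 libraries was sequenced. The authors deposited 1 table of TPM, scaled to 1000000 in each library. STAR, RSEM and GRCh38 are named in the submitters' processing notes. No version, annotation or strand setting is named there. Columns were matched to samples by cell line, hairpin and replicate number, those marked E by line and number after the NS columns were matched to shNS. A gene needed 1 TPM or more in 2 or more libraries (14302 passed). These were tested on log2(TPM + 1) with limma 3.58.1 in R 4.3.3: a mean for each of 4 groups over all 8 libraries, intensity trend, 4 residual and 2.29 prior degrees of freedom, two-sided, Benjamini-Hochberg adjustment over all genes, threshold 0.05. The planned count tests were not run, since TPM keeps no counts. The 4 comparisons were both knockdowns, their difference and the control lines. Fold changes on this scale understate changes of low genes. A fold given as times higher or lower is a ratio of mean TPM. The test was checked on simulated data. The members and lists were chosen with earlier results of these data known. All 38 members could be named, and of the other lists the 3 smallest p in each knockdown. ATF4, EIF2AK4, CXCL10 and the overlapping genes DDIT3, TERF2IP and EEF1E1-BLOC1S5 were added after their values were seen. Gene coordinates are from GENCODE release 29 (GRCh38). Promoter sequences are from RefSeq (GRCh38.p14). DARS, LARS, VARS, YARS, AARS2 and VARS2 had no matched promoter.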

Additional observations from a re-analysis of the deposited data

Results flagged for a closer look

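For 12 of the 38 genes the knockdown effect in NOMO-1 differed from that in MOLM-13 by limma's interaction test, as log2 effect in NOMO-1 minus that in MOLM-13. This count is near the share over all genes, of which 34.6% passed (29.7% higher, 4.9% lower). The difference was 0.55 for AARS, 0.89 for EPRS, 1.13 for GARS, 0.68 for IARS, 0.67 for NARS, 0.98 for RARS, 0.58 for SARS, 0.76 for TARS, 1.17 for RARS2 and 0.66 for WARS2. It was -0.72 for MARS2 and -3.84 for EEF1E1, the last with the uncertain value described above. With median-of-ratios scaling 6 of the 12 passed (EPRS, GARS, RARS, MARS2, RARS2 and EEF1E1), and the values for AARS, SARS and NARS were 0.04, 0.07 and 0.16. EEF1E1 and EPRS passed in all alternatives run for this comparison.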

How the results depend on the processing

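Each member had 17 alternative fits for a knockdown. The share of all genes that passed is given here for the main fit only. Counts of the 38 genes in the alternatives, here and above, are not set against such a share. They are therefore not read as results about these genes. With median-of-ratios scaling 25 of the 38 genes passed in NOMO-1 in place of 16, with library weights 29 and with the line fitted alone 28. In MOLM-13 library weights gave 9 in place of 20 and the line alone 6. Leaving out 1 library gave 5 to 29 in NOMO-1, 6 to 29 in MOLM-13, 2 to 32 for the difference (12 with all libraries) and 12 to 28 for the control lines (21 with all libraries). Library weights were 0.101 for each MOLM-13 shALKBH5 library and at least 1.41 for the others. The direction turned and a call arose for NARS (0.16, median-of-ratios) and AIMP2 (0.19, quantile) in MOLM-13. For the difference it turned for VARS (-0.46 and -0.36, median-of-ratios and quantile) and AIMP2 (-0.4 and -0.36). For the control lines it turned for EPRS (-0.3 and -0.34), NARS (-0.17 and -0.21) and IARS2 (-0.17, quantile). For these the cause was not tested. ALKBH5 passed in every alternative, from -2.4 to -2.16 in NOMO-1 and from -2.48 to -2.01 in MOLM-13. Leaving GARS and KARS out of the cytosolic list left 4 higher and 4 lower in NOMO-1 and 10 lower in MOLM-13. Same-numbered MOLM-13 libraries deviated together only weakly (r = 0.06 across genes), and NOMO-1 groups share 1 number. A replicate block for MOLM-13 gave 15 genes in NOMO-1, 20 in MOLM-13, 12 for the difference and 21 for the controls. TPM keeps no depth, so which low values are limited by depth is unknown.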

Other observations

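A further list held 22 symbols of enzymes and carriers that act around charging (proofreading, transamidation, tRNA end repair and export, elongation factors), of which 21 were tested. In NOMO-1 3 were higher and 3 lower (median 0.03), and in MOLM-13 2 were higher and 7 lower (median -0.31). Over all genes 28.6% were higher and 15% lower in NOMO-1, and 10.6% higher and 31.2% lower in MOLM-13, so the MOLM-13 counts are near those shares. DTD1, which removes D-amino acids from transfer RNA, fell in both lines, from 95.9 and 94.6 TPM to 45.8 and 48.6 TPM in NOMO-1 (-1, SE 0.1, limma adjusted p = 0.00084) and from 43.7 and 38.35 TPM to 23.6 and 24.3 TPM in MOLM-13 (-0.75, SE 0.1, adjusted p = 0.0023). TUFM, the mitochondrial elongation factor that carries charged transfer RNA, fell in NOMO-1 (-0.58, adjusted p = 0.0025), as did MTFMT, which formylates the mitochondrial initiator (-0.64, adjusted p = 0.0073). Neither was called in MOLM-13 (0.15 and -0.35). In MOLM-13 SEPSECS, of selenocysteine synthesis on its transfer RNA, fell from 10.1 and 8.89 TPM to 4.27 and 3.87 TPM (-1.05, adjusted p = 0.0011). In NOMO-1 SEPSECS was called higher, from 7.99 and 7.74 TPM to 10.19 and 10.88 TPM (0.38, limma adjusted p = 0.034). XPOT, the nuclear exporter of transfer RNA, went from 179 and 178 TPM to 247 and 272 TPM in NOMO-1 (0.53, adjusted p = 0.027) and from 266 and 258 TPM to 161 and 120.3 TPM in MOLM-13 (-0.91, adjusted p = 0.0045).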
